A study of Mus musculus with 9 samples.

Results

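Expression of genes that drive the cell cycle and copy DNA was examined in fetal mouse urogenital sinus (UGS) mesenchymal cells exposed to low doses of estradiol (E2). The set was a list of 39 gene symbols with 6 roles in the cycle, of which 37 were measured among the 19938 genes of the array table. These were 12 DNA replication genes, 10 mitotic genes, 2 transcription factors, 7 cyclins, 4 cyclin-dependent kinases and 2 inhibitors of those kinases. A gene with more than 1 probeset was read from the one whose signal averaged highest across the 9 arrays. The cyclin gene Ccnb1 and the inhibitor gene Cdkn1a were not analysed here, since no probeset carried either symbol alone.

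The UGS mesenchyme is the connective tissue that induces the overlying epithelium to form the prostate in the male fetus, and it gives rise to the stroma of the gland. First-passage cells from male CD-1 fetuses of gestation day 17 were held for 3 days in estrogen-free medium with hormone-stripped serum and were then exposed for 4 days. The question was how low doses of E2 alter gene expression in these cells. The groups were ethanol vehicle, 10 pM E2 and 100 pM E2, with 3 arrays per group. Every group, vehicle included, received 690 pM dihydrotestosterone (DHT), an androgen that cannot be converted to estrogen, so no group was free of steroid. By the paper's account this DHT and an insulin supplement were in the medium from seeding, before E2 was added. Epithelial cells had been removed by settling before culture. Values are log2 probeset signals on Affymetrix Mouse Gene 1.0 ST arrays, which are comparable between arrays for 1 gene but not between genes. Nothing in the sources stated that the 3 samples of a group were separate cell isolations, so the tests take their error from the spread among these 9 arrays alone, and that spread may be technical.

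Passage from the G1 phase into DNA synthesis starts when D-type cyclins bind Cdk4 or Cdk6 and phosphorylate the retinoblastoma protein, which then releases E2F transcription factors. E2F proteins turn on the replication genes, whereas mitotic genes are turned on later by a complex that includes Foxm1 and that acts at a promoter element called the cell cycle genes homology region (CHR). Cdkn1b (p27) and related inhibitors hold the cyclin-kinase pairs in check. In the breast and the uterus estrogen is a mitogen, and Ccnd1, the gene for cyclin D1, is among its known targets there.

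Promoter sequences of the genes were read from RefSeq for build GRCm38.p6, as windows of 300 bases with 250 before and 50 after the start site, printed 5′ to 3′ on the strand of the gene. Of the 39 genes, 31 had such a window (35 windows in all), and Mcm4, Aurkb, Kif20a, Foxm1, Ccnd1, Ccnd2, Ccne2 and Ccna2 had none. The windows were searched on both strands for an E2F site (TTTCCCGC, TTTCGCGC, TTTGCCGC or TTTGGCGC), for the CHR (TTTGAA or TTCGAA, the second of which reads the same on both strands), for the CCAAT box (CCAAT) and for an estrogen response element made of GGTCA and TGACC separated by 3 bases. Windows of Plk1, Aurka, Cdk1 and Mcm7 are shown because they hold the combinations met among mitotic genes, kinases and replication genes, with the matched letters in capitals. They lie at chr7:122159185-122159484 on the plus strand for Plk1, and on the minus strand at chr2:172370521-172370820 for Aurka, chr10:69352863-69353162 for Cdk1 and chr5:138171834-138172133 for Mcm7.
Plk1: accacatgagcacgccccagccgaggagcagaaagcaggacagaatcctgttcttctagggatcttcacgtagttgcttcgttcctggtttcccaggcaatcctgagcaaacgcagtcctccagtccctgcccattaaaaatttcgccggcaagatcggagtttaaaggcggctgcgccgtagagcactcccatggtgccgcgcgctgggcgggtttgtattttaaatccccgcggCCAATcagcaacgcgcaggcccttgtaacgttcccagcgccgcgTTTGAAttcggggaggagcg
Aurka: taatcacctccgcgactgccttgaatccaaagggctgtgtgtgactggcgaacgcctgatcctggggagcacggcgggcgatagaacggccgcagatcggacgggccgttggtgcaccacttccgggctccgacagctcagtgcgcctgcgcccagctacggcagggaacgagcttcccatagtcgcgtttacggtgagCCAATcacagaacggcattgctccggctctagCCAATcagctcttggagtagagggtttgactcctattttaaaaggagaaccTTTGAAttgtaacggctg
Cdk1: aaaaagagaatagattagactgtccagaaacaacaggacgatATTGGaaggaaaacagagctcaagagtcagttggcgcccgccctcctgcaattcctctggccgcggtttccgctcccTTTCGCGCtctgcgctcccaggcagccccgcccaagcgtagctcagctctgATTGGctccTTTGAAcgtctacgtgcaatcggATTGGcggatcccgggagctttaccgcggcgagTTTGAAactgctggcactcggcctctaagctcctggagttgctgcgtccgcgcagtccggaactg
Mcm7: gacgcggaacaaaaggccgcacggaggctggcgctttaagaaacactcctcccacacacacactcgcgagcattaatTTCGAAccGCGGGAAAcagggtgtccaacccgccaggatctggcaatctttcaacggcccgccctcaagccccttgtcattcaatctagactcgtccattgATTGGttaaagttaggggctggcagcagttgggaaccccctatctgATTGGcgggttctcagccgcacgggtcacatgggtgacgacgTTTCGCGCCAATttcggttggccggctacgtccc

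Plk1 and Aurka each had a CHR match just after the start site, at positions 30 and 32, with CCAAT matches before it, at -14 in Plk1 and at -51 and -19 in Aurka. Cdk1 held an E2F match at -131 together with 2 CHR matches and 3 CCAAT matches. Mcm7 held E2F matches at -165 and 16, and the second of these shares 1 base with the CCAAT match that follows it. All 8 mitotic genes with a window held both a CHR and a CCAAT match and 0 of 8 held an E2F match, and in 7 of the 8 a CHR match lay within 50 bases of the start site. Of the 12 windows of replication genes, 6 held an E2F match, 2 a CHR match and 9 a CCAAT match. Over all 35 windows of the set the E2F site was found in 22.9%, the CHR in 34.3% and the CCAAT box in 68.6%, against 2.99%, 16.5% and 37.4% of the 19177 windows of all genes tested. Among all 32851 windows in the table these shares were 2.26%, 19.2% and 37.4%. The estrogen response element was in 0 of the 35 windows, in 0.0313% of the windows of all genes tested and in 0.07% of all windows. At shares this low, 0 of 35 does not set these genes apart. Median GC content was 59.3% in the windows of the set and 57.3% in those of all genes tested. A match describes the letters only, and binding was not measured.

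**Figure D1:**
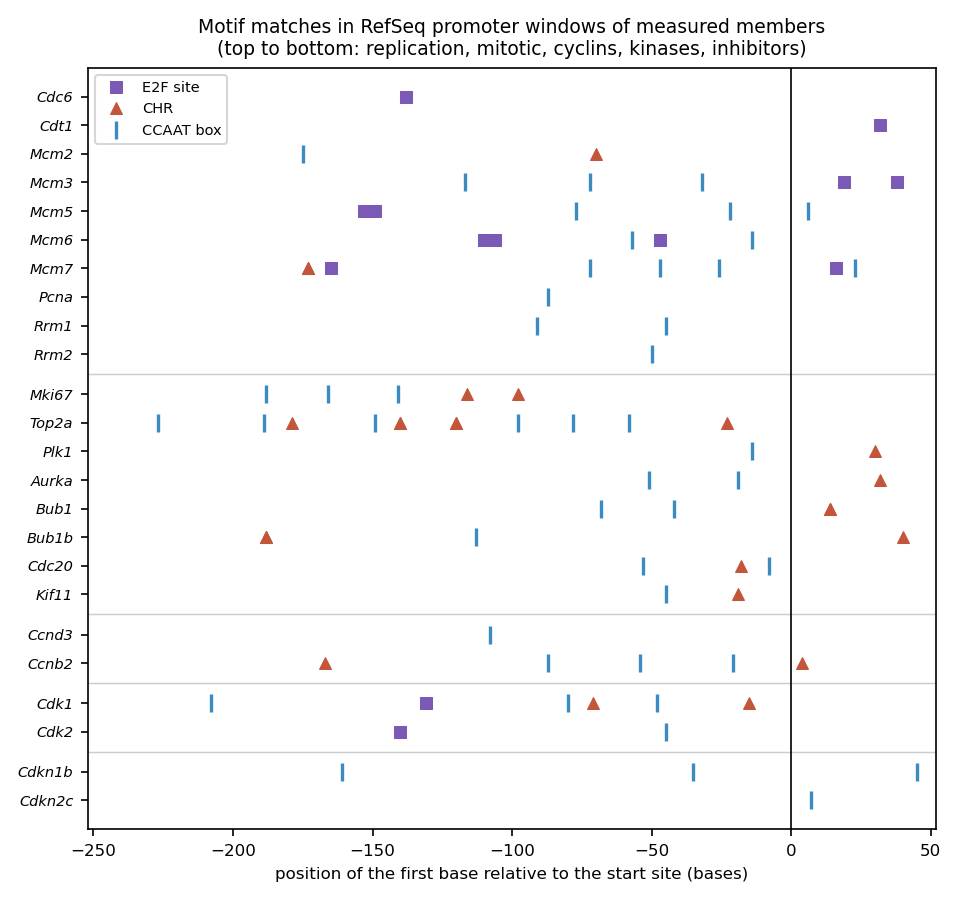
Positions of motif matches in the promoter windows, in bases from the start site (x axis), for each measured gene of the set with a match (rows). Squares are E2F sites, triangles CHR elements and bars CCAAT boxes; all 8 mitotic genes with a window hold triangles and bars and no square. Tyms, E2f1, Ccne1, Cdk4 and Cdk6 have a window with no match and are not drawn, and a gene with more than 1 window has its matches in 1 row.

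Genes were compared in 1 linear model of all 9 arrays, and a gene is called where the Benjamini-Hochberg adjusted p over all 19938 genes is below 0.05. A difference is written on the log2 scale as E2 minus vehicle, or as 100 pM minus 10 pM, with its standard error (SE). As a check that the cells responded, the progesterone receptor gene Pgr, a classical estrogen target, measured 6.57, 6.84 and 6.77 on the vehicle arrays, 7.04, 7.27 and 7.26 at 10 pM and 7.55, 7.84 and 7.90 at 100 pM. Pgr rose by 1.04 ± 0.11 at 100 pM (limma adjusted p = 0.00359), and its arrays at 10 pM also lay above those of vehicle. The call of Pgr was lost with the compared groups alone (limma adjusted p = 0.0527) and by analysis of variance of those groups (adjusted p = 0.438). At 10 pM E2, 32 of the 37 cell cycle genes had a higher mean than vehicle, against 53.5% of all genes, and 0 of the 37 were called. No gene of the table was called in that comparison (0%, with a smallest limma adjusted p of 0.16). At an unadjusted p below 0.05, 2.19% of all genes were higher and 1.35% lower, together no more than that limit passes with no effect. At 100 pM, 29 of 37 had a higher mean than vehicle and 2 were called, Ccnd1 and the mitotic kinase gene Plk1, both higher. In the table as a whole 53% of genes had a higher mean, 0.446% were called higher and 0.687% were called lower in this comparison. Of the 8 cell cycle genes with a lower mean than vehicle, 0 were called. Between the doses, 16 genes had the higher mean at 100 pM and 21 at 10 pM, where 50.4% of all genes were higher at 100 pM. Ccnd1 alone was called (0.226% of all genes were called higher and 0.607% lower). The split between the doses turned to 24 of 37 with the higher mean at 100 pM without 100 pM array 2, and to 20 of 37 with each array centred on its median. Ccnd1 was also the only gene of the set called by the F test over the 3 groups, which called 0.843% of all genes. At an unadjusted p below 0.05 the counts were 8 higher and 0 lower at 10 pM and 12 higher and 1 lower at 100 pM, where 5.50% of all genes were higher and 5.36% lower.

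The median over the 37 genes was 0.06 at 10 pM and 0.08 at 100 pM, where the medians over all genes were 0.005 at either dose, and single differences ran between -0.07 and 0.18 at 10 pM and between -0.24 and 0.44 at 100 pM. The SE of a single gene lay between 0.03 and 0.11. For 13 of the 37 genes (35.1%) the 3 arrays at 10 pM all lay above the 3 vehicle arrays, and for 0 they all lay below. Over all genes these shares were 3.74% above and 2.19% below. At 100 pM, 11 genes (29.7%) lay wholly above vehicle and 1, Cdkn1b, wholly below, with 6.61% and 5.89% over all genes. Between the doses, 7 genes (18.9%) lay wholly higher at 100 pM and 3 wholly lower, with 5.89% and 6.42% over all genes. These genes are transcribed together in dividing cells and were read on the same arrays, and both doses were set against the same 3 vehicle arrays, so the genes do not count as independent replicates. In RNA from whole cultures, a larger share of dividing cells and more of these transcripts per cell cannot be told apart.

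**Figure D2:**
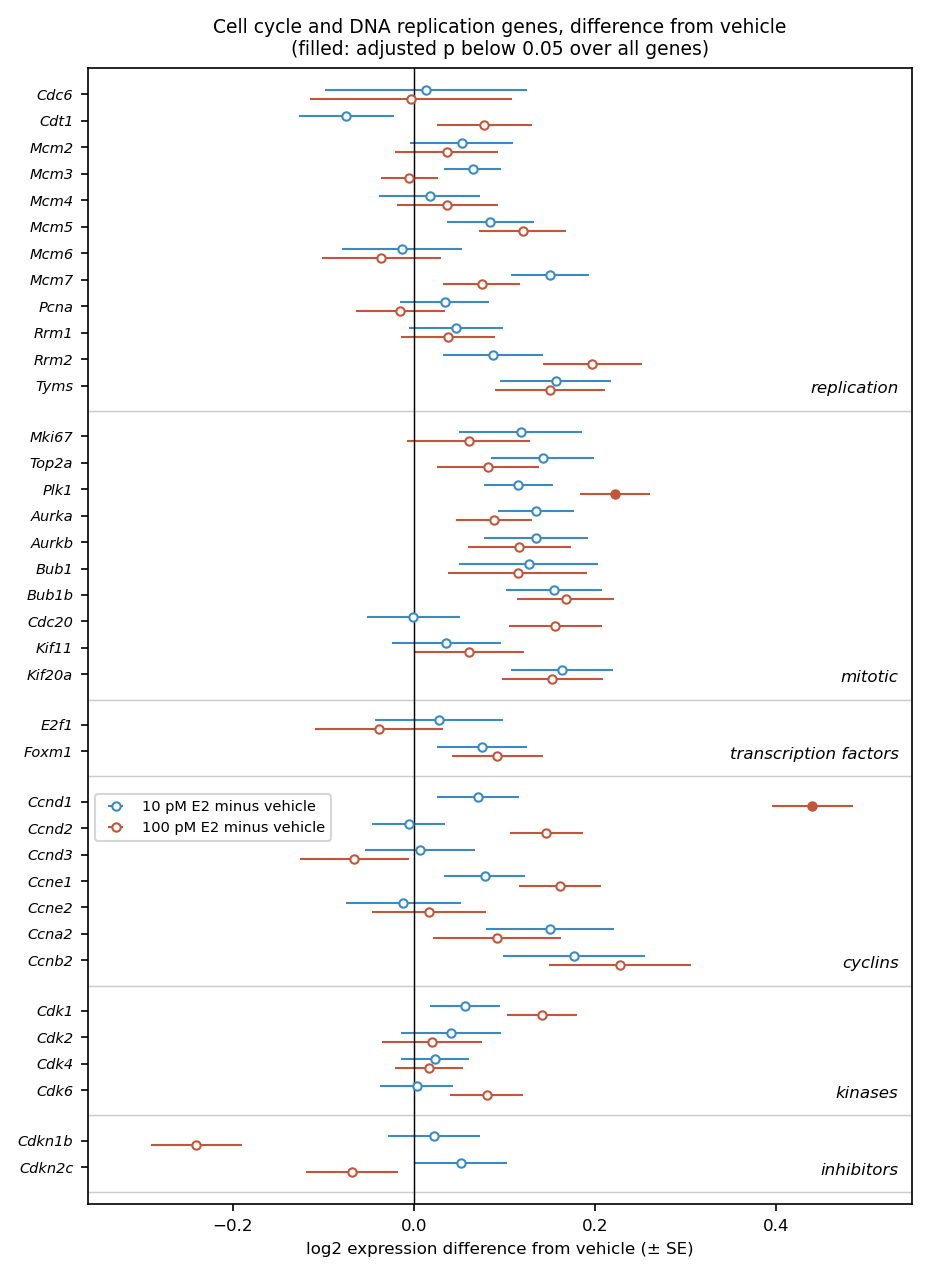
Difference in log2 expression from vehicle (x axis, ± SE) for each of the 37 genes, grouped by role, at 10 pM and 100 pM E2 with 3 arrays per group. Filled points have an adjusted p below 0.05 and are those of Ccnd1 (0.44) and Plk1 (0.22) at 100 pM; at 10 pM 32 of 37 points lie right of 0.

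The 12 replication genes license origins, unwind DNA or make nucleotides. At 10 pM E2, 10 of 12 had a higher mean than vehicle with a median difference of 0.05, and at 100 pM 8 of 12 with a median of 0.04, and 0 were called at either dose. Rrm2, which encodes the regulated subunit of ribonucleotide reductase, measured 8.85, 9.06 and 8.99 on the vehicle arrays, 9.05, 9.06 and 9.06 at 10 pM and 9.15, 9.12 and 9.23 at 100 pM. Its arrays at 100 pM lay above all others, but the difference of 0.20 ± 0.06 from vehicle did not pass (95% interval 0.07 to 0.32, adjusted p = 0.187). Mcm7, a subunit of the helicase that unwinds DNA at the fork, had its highest arrays at 10 pM, with 8.54, 8.59 and 8.67 on vehicle arrays, 8.76, 8.77 and 8.71 at 10 pM and 8.64, 8.70 and 8.68 at 100 pM. At 10 pM it differed from vehicle by 0.15 ± 0.04 (unadjusted p = 0.00658, adjusted p = 1), and the arrays at 100 pM overlapped those of vehicle. Tyms, the gene for thymidylate synthase, lay wholly above vehicle at both doses, by 0.16 ± 0.06 at 10 pM and 0.15 ± 0.06 at 100 pM (adjusted p = 0.421 at 100 pM).

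The other helicase subunits had differences of either sign. Mcm5 differed from vehicle by 0.08 ± 0.05 at 10 pM and 0.12 ± 0.05 at 100 pM, whereas Mcm6 differed by -0.01 ± 0.07 and -0.04 ± 0.07 and Mcm2, Mcm3 and Mcm4 by between -0.005 and 0.06 at either dose. None of them passed the test. Cdc6 and Cdt1 load the helicase onto origins. Cdt1 was among the few genes with a lower mean at 10 pM, by -0.07 ± 0.05, and it differed from vehicle by 0.08 ± 0.05 at 100 pM, while Cdc6 had the widest spread of the set (SE 0.11) and differences of 0.01 and -0.003. Pcna, the sliding clamp of the replicating polymerases, differed by 0.03 ± 0.05 at 10 pM and -0.02 ± 0.05 at 100 pM, and its other probeset by 0.04 and -0.01. Rrm1, the large subunit of ribonucleotide reductase, differed by 0.05 ± 0.05 and 0.04 ± 0.05.

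Of the 10 mitotic genes 9 had a higher mean than vehicle at 10 pM, with a median difference of 0.13, and at 100 pM all 10, with a median of 0.12 and a range of 0.06 to 0.22. Expression of Plk1 (gene at chr7:122159435-122169884 in GRCm38.p6), a kinase needed for entry into mitosis and for the spindle, rose by 0.22 ± 0.04 at 100 pM, or 1.17-fold (95% interval 0.14 to 0.31, adjusted p = 0.0323). Its values were 8.95, 9.01 and 8.92 on the vehicle arrays, 9.10, 9.08 and 9.04 at 10 pM and 9.17, 9.16 and 9.22 at 100 pM, so that the 3 groups did not overlap and were ordered by dose. The difference was 0.12 ± 0.04 at 10 pM (unadjusted p = 0.0148, adjusted p = 1) and 0.11 ± 0.04 between the doses (adjusted p = 0.372). The call at 100 pM was narrow. It held without vehicle array 2 (adjusted p = 0.0431) and was lost on leaving out any 1 of the other 8 arrays (vehicle arrays 1 and 3, and arrays 1, 2 and 3 of either E2 dose), with an adjusted p between 0.0594 and 0.126. The Plk1 call was also lost with the replicate number as a block (limma adjusted p = 0.09), over all probesets (0.0951), with the compared groups alone (0.139) and by analysis of variance (0.443).

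Aurka, the kinase that matures centrosomes, measured 7.99, 8.09 and 8.02 on vehicle arrays, 8.16, 8.23 and 8.11 at 10 pM and 8.11, 8.11 and 8.14 at 100 pM. Both doses thus lay above vehicle without overlap, and neither difference passed (0.14 ± 0.04 at 10 pM with adjusted p = 1, and 0.09 ± 0.04 at 100 pM with adjusted p = 0.501). Mki67, the gene of the proliferation marker Ki-67, had 9.01, 8.89 and 9.05 on vehicle arrays, 9.14, 9.06 and 9.11 at 10 pM and 9.04, 8.92 and 9.17 at 100 pM. Its arrays at 10 pM lay just above those of vehicle, and those at 100 pM spanned both groups. The difference of Mki67 was 0.12 ± 0.07 at 10 pM and 0.06 ± 0.07 at 100 pM (95% interval -0.09 to 0.21, adjusted p = 0.798).

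The spindle checkpoint gene Bub1b differed by 0.15 ± 0.05 at 10 pM and 0.17 ± 0.05 at 100 pM, and the kinesin gene Kif20a, which acts at the end of mitosis, by 0.16 ± 0.06 and 0.15 ± 0.06. For both genes the arrays at either dose lay wholly above vehicle. Cdc20, the activator of the ubiquitin ligase that ends mitosis, followed another order, with a difference of -0.0006 ± 0.05 at 10 pM and 0.16 ± 0.05 at 100 pM (adjusted p = 0.277). Top2a, which untangles DNA, differed by 0.14 ± 0.06 and 0.08 ± 0.06, Aurkb by 0.13 ± 0.06 and 0.12 ± 0.06, Bub1 by 0.13 ± 0.08 and 0.11 ± 0.08, and the spindle kinesin gene Kif11 by 0.04 ± 0.06 and 0.06 ± 0.06. Of these 4, Top2a at 10 pM was the case in which the arrays did not overlap vehicle. The lowest Aurkb arrays at either dose had the same value as the highest of vehicle (8.065). None of the 9 mitotic genes other than Plk1 was called at either dose.

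**Figure D3:**
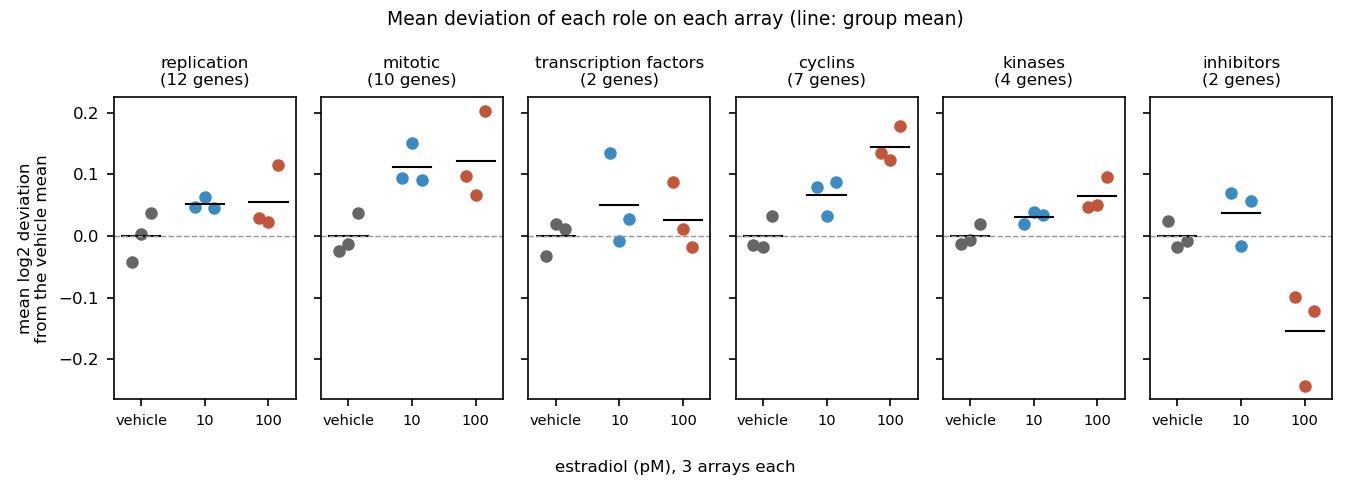
Mean log2 deviation from the vehicle mean over the genes of each role (y axis) on each of the 9 arrays, by E2 dose; points are arrays and lines group means. The mitotic genes averaged 0.07 to 0.20 on the 100 pM arrays, with array 3 highest, the cyclins 0.12 to 0.18, and the inhibitors -0.24 to -0.10.

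By array, the mean deviation of the 10 mitotic genes from their vehicle mean was -0.02, -0.01 and 0.04 on the vehicle arrays, 0.09, 0.15 and 0.09 at 10 pM and 0.10, 0.07 and 0.20 at 100 pM. The 12 replication genes gave -0.04, 0.004 and 0.04 on vehicle arrays, 0.05, 0.06 and 0.04 at 10 pM and 0.03, 0.02 and 0.12 at 100 pM. In both roles array 3 at 100 pM was the highest, and without it the replication genes at 100 pM lay within the range of the vehicle arrays. For the mitotic genes all 6 arrays with E2 stayed above the 3 of vehicle.

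E2f1 and Foxm1 encode transcription factors of the replication and the mitotic genes. E2f1 measured 7.17, 7.23 and 7.24 on vehicle arrays, 7.35, 7.13 and 7.24 at 10 pM and 7.24, 7.25 and 7.04 at 100 pM, and the 3 groups overlapped. It differed from vehicle by 0.03 ± 0.07 at 10 pM and -0.04 ± 0.07 at 100 pM. Foxm1 measured 6.90, 6.94 and 6.92 on vehicle arrays, 7.05, 6.99 and 6.95 at 10 pM and 7.07, 6.91 and 7.06 at 100 pM. The 10 pM arrays lay above vehicle and 1 of the 3 arrays at 100 pM did not, with differences of 0.08 ± 0.05 and 0.09 ± 0.05 (adjusted p = 0.564 at 100 pM).

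Among the cyclins, 5 of 7 had a higher mean than vehicle at 10 pM (median difference 0.07) and 6 of 7 at 100 pM (median 0.15). Expression of Ccnd1, cyclin D1 (gene at chr7:144929931-144939831 in GRCm38.p6), rose by 0.44 ± 0.05 at 100 pM, or 1.36-fold (95% interval 0.34 to 0.54, adjusted p = 0.00359), the largest difference of the set. The values were 9.08, 9.19 and 9.16 on the vehicle arrays, 9.18, 9.25 and 9.20 at 10 pM and 9.57, 9.64 and 9.53 at 100 pM. All 3 arrays at 100 pM lay above the other 6, while the 10 pM arrays overlapped those of vehicle (0.07 ± 0.05, adjusted p = 1). Ccnd1 was also higher at 100 pM than at 10 pM, by 0.37 ± 0.05 or 1.29-fold (adjusted p = 0.0097). The rise over vehicle was called on leaving out any 1 of the 9 arrays (adjusted p between 0.0101 and 0.0227), whereas the difference between the doses was lost without 10 pM array 1 (adjusted p = 0.0616) or array 3 (adjusted p = 0.057). The rise of Ccnd1 over vehicle was not called when those groups alone were fitted (limma adjusted p = 0.0527) or by analysis of variance (adjusted p = 0.396). The difference of Ccnd1 between the doses was not called over all probesets (limma adjusted p = 0.0513), with those groups alone (0.0714) or by analysis of variance (0.341).

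Ccnd2, cyclin D2, showed the same split between the doses at a smaller size. It measured 11.90, 12.03 and 11.92 on vehicle arrays, 11.96, 11.94 and 11.93 at 10 pM and 12.10, 12.11 and 12.07 at 100 pM, so that the 100 pM arrays lay above all others. Its difference from vehicle was -0.006 ± 0.04 at 10 pM and 0.15 ± 0.04 at 100 pM (adjusted p = 0.181), and 0.15 ± 0.04 between the doses (adjusted p = 0.182). The remaining D-type cyclin gene, Ccnd3, differed by 0.007 ± 0.06 at 10 pM and -0.07 ± 0.06 at 100 pM, and was the only cyclin with a lower mean than vehicle at 100 pM. Whether the 3 D-type cyclins differed from each other was not tested.

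The cyclins of later phases were not called. Ccne1, which pairs with Cdk2 at the start of DNA synthesis, differed by 0.08 ± 0.04 at 10 pM and 0.16 ± 0.04 at 100 pM (adjusted p = 0.186), where its arrays lay above the other 6. Ccne2 differed by -0.01 ± 0.06 and 0.02 ± 0.06, with the same value on every array at 100 pM (6.7766). Ccna2 and Ccnb2, the cyclins of S phase and mitosis, differed by 0.15 ± 0.07 and 0.18 ± 0.08 at 10 pM and by 0.09 ± 0.07 and 0.23 ± 0.08 at 100 pM (adjusted p = 0.697 and 0.313 at 100 pM). The difference of Ccnb2 was about as large as that of Plk1 but with an SE of 0.08 in place of 0.04. Its lowest array at 100 pM had the same value as the highest of vehicle (8.4965).

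**Figure D4:**
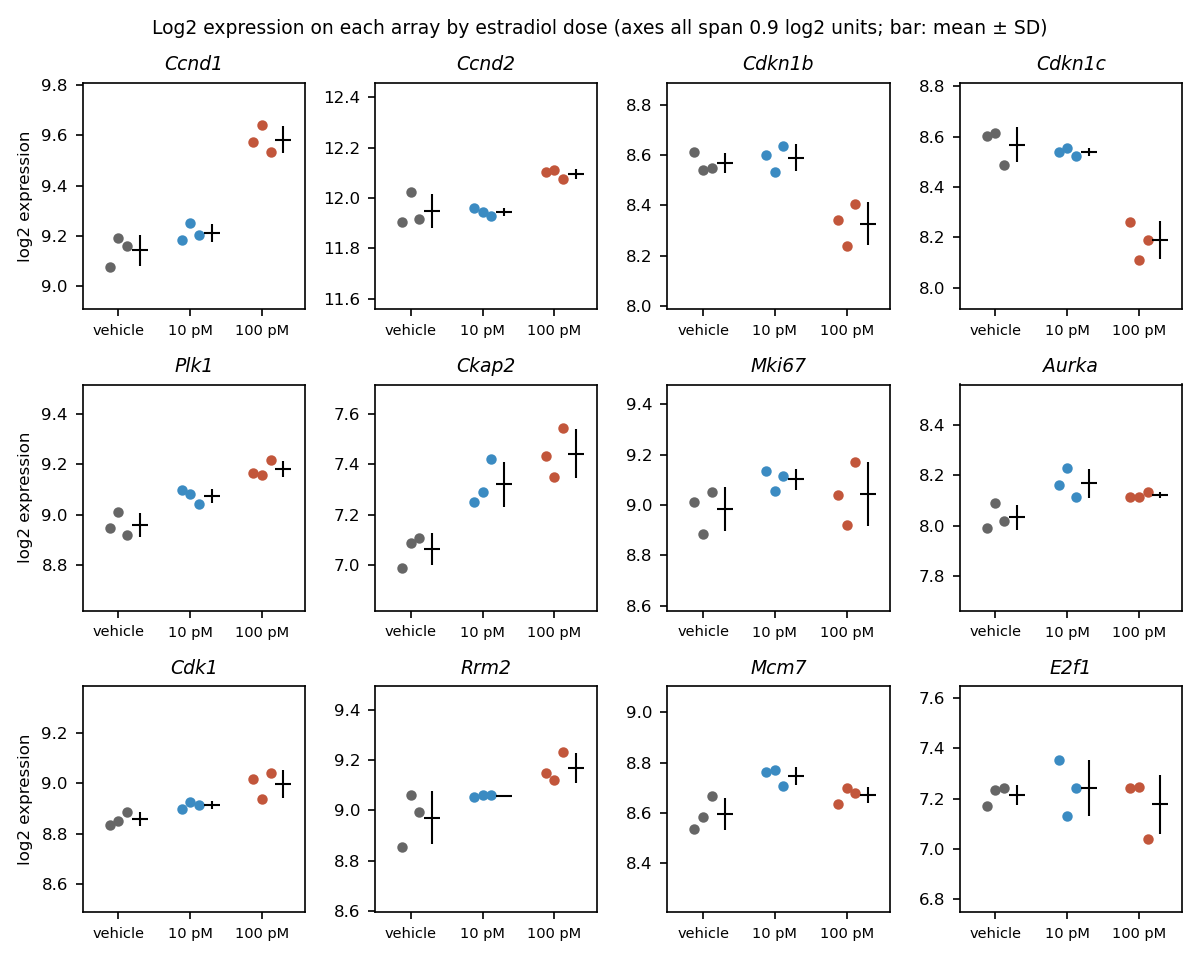
Log2 expression on each of the 9 arrays (y axis) by E2 dose for 10 genes of the set and for Cdkn1c and Ckap2, with the mean ± SD beside the points and every axis spanning 0.9 log2 units. Ccnd1 at 100 pM lies between 9.53 and 9.64, above the other 6 arrays, Plk1 is ordered by dose, and Cdkn1b and Cdkn1c at 100 pM lie below all other arrays.

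Of the 4 kinases, Cdk1, the partner of the mitotic cyclins, had the largest difference. It measured 8.83, 8.85 and 8.89 on vehicle arrays, 8.90, 8.93 and 8.91 at 10 pM and 9.02, 8.94 and 9.04 at 100 pM. The groups did not overlap and were ordered by dose, with differences from vehicle of 0.06 ± 0.04 at 10 pM and 0.14 ± 0.04 at 100 pM (adjusted p = 0.171). Cdk6, a partner of the D-type cyclins, measured 9.66, 9.70 and 9.69 on vehicle arrays, 9.69, 9.68 and 9.69 at 10 pM and 9.69, 9.83 and 9.77 at 100 pM. The Cdk6 arrays at 100 pM overlapped both other groups. Cdk6 differed from vehicle by 0.003 ± 0.04 at 10 pM and 0.08 ± 0.04 at 100 pM. Cdk2 and Cdk4 differed by at most 0.04 at either dose, with an SE of 0.06 for Cdk2 and 0.04 for Cdk4.

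Both inhibitors had a mean below vehicle at 100 pM. Cdkn1b, which encodes p27 (gene at chr6:134920401-134925525 in GRCm38.p6), measured 8.61, 8.54 and 8.55 on vehicle arrays, 8.60, 8.53 and 8.64 at 10 pM and 8.34, 8.24 and 8.40 at 100 pM. All 3 arrays at 100 pM lay below the other 6, and the 10 pM arrays overlapped vehicle. The difference of -0.24 ± 0.05 from vehicle (95% interval -0.35 to -0.13, 0.847-fold) did not pass over all genes (unadjusted p = 0.00106, adjusted p = 0.0712), nor did that of -0.26 ± 0.05 from 10 pM (adjusted p = 0.0604). Without 100 pM array 3 the difference between the doses was -0.30 and passed (adjusted p = 0.0469). The other Cdkn1b probeset differed from vehicle by -0.10 ± 0.05 at 100 pM. Cdkn2c (p18), an inhibitor of Cdk4 and Cdk6, measured 7.49, 7.48 and 7.49 on vehicle arrays, 7.59, 7.49 and 7.53 at 10 pM and 7.51, 7.33 and 7.40 at 100 pM. It differed from vehicle by 0.05 ± 0.05 at 10 pM and -0.07 ± 0.05 at 100 pM, with overlapping arrays.

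Other genes of the same pathways were taken from lists of known function. Of 57 further mitotic genes 56 had a higher mean than vehicle at 10 pM and 55 at 100 pM, with median differences of 0.08 and 0.11, and of 41 further replication genes 29 and 32, with medians of 0.03 at either dose. Over all genes 53.5% had a higher mean at 10 pM and 53% at 100 pM. By array, the mean deviation of the 41 replication genes was -0.023, -0.015 and 0.037 on vehicle arrays. It was 0.042, 0.035 and 0.023 at 10 pM and 0.004, 0.035 and 0.081 at 100 pM, so both doses overlapped vehicle. At 10 pM 0 genes of either list were called. At 100 pM 1 was called (0.446% of all genes were called higher), Ckap2, a spindle protein gene, which rose by 0.38 ± 0.06 (adjusted p = 0.0297). Ckap2 measured 6.99, 7.09 and 7.11 on vehicle arrays, 7.25, 7.29 and 7.42 at 10 pM and 7.43, 7.35 and 7.55 at 100 pM, and both doses lay wholly above vehicle. Its call was lost on leaving out any 1 of 7 arrays, which were vehicle arrays 1, 2 and 3, 10 pM arrays 1 and 2 and 100 pM arrays 1 and 3 (adjusted p between 0.0508 and 0.126). It was also lost over all probesets (limma adjusted p = 0.103), with the compared groups alone (0.11) and by analysis of variance (0.467). Among the replication genes the smallest p values were those of Dck, a nucleoside kinase gene (0.19 ± 0.05, adjusted p = 0.16), and Uhrf1, which maintains DNA methylation at the fork (0.24 ± 0.06, adjusted p = 0.162), both at 100 pM.

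In the RB and E2F network, 0 of 20 genes were called in any comparison and the medians were -0.01 at 10 pM and 0.03 at 100 pM. Between the doses the smallest p values were those of Cdc25a, a phosphatase that activates the kinases (0.12 ± 0.04, adjusted p = 0.302), and Lin52, a subunit of the complex that represses and later activates cell cycle promoters (0.11 ± 0.04, adjusted p = 0.319). Lin52 was read from the brighter of its 2 probesets. Of 10 other inhibitors 1 was called lower at 100 pM than vehicle (0.687% of all genes were), Cdkn1c (p57), which is related to Cdkn1b. It measured 8.60, 8.62 and 8.49 on vehicle arrays, 8.54, 8.56 and 8.52 at 10 pM and 8.26, 8.11 and 8.19 at 100 pM. The difference from vehicle at 100 pM was -0.38 ± 0.05 (0.768-fold, adjusted p = 0.00884) and was lost without vehicle array 1 (adjusted p = 0.0561), with the compared groups alone (0.0876) and by analysis of variance (0.443). The difference from 10 pM was -0.35 ± 0.05 (adjusted p = 0.0166) and was lost without 10 pM array 1, 2 or 3 or 100 pM array 2 (adjusted p between 0.0528 and 0.0869), over all probesets (0.0621), with the compared groups alone (0.0851) and by analysis of variance (0.446). The median of the 10 was 0.02 at 100 pM, where 6 had a higher mean than vehicle.

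Of 17 other cyclins and kinases 0 were called, with a median of 0.01 at 10 pM and 0.02 at 100 pM. Ccng1, a cyclin gene induced by DNA damage, differed by 0.21 ± 0.05 at 100 pM (adjusted p = 0.092), and Ccng2, a cyclin of arrested cells, by -0.17 ± 0.05 between the doses (adjusted p = 0.172). Among 13 targets of p53, which include Ccng1, the median was 0.01 at 10 pM and 0.17 at 100 pM, and 11 had a higher mean than vehicle at 100 pM. Over all genes 53% had a higher mean in this comparison and 0.446% were called higher. Of the 11 targets with a higher mean, 2 were called. Gtse1, a protein gene of the G2 and S phases, rose by 0.31 ± 0.05 (adjusted p = 0.0275), and Pmaip1, a gene for a cell death protein, by 0.28 ± 0.05 (adjusted p = 0.0416). The call of Gtse1 held without vehicle array 3 or 100 pM array 3 and was lost without any other single array (arrays 1 and 2 of vehicle and of 100 pM, and all 3 of 10 pM, adjusted p between 0.0571 and 0.117). That of Pmaip1 held without 100 pM array 1 and was lost without any other single array (adjusted p between 0.0573 and 0.155). With the replicate number as a block neither was called (limma adjusted p = 0.0709 for Gtse1 and 0.0616 for Pmaip1), nor over all probesets (0.0924 and 0.12), with the compared groups alone (0.155 and 0.19) or by analysis of variance (0.506 and 0.543).

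**Figure D5:**
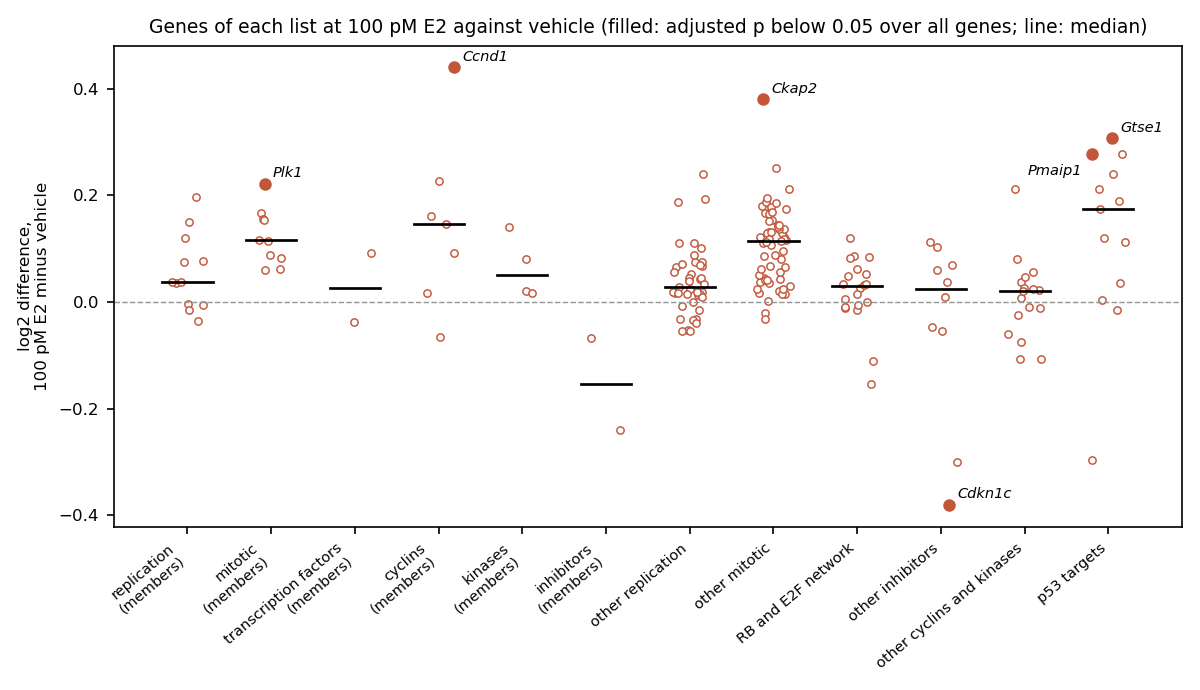
Log2 difference of 100 pM E2 minus vehicle (y axis) for every gene of the 6 roles and of the 6 other cell cycle and p53 lists, without the cell type markers; filled points have an adjusted p below 0.05 over all genes and lines are list medians. The medians of the mitotic genes of the set and of the other mitotic genes are 0.12 and 0.11, those of the replication lists 0.04 and 0.03, and Cdkn1c lies lowest of the genes drawn at -0.38.

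The cultures were checked for other cell types. The mesenchymal markers, whose mean log2 signals lay between 9.17 and 13.57, had a summed linear signal of 51600 to 52430 on the vehicle arrays, 51790 to 53040 at 10 pM and 50740 to 52000 at 100 pM. At 100 pM 3 of 9 were called lower than vehicle (0.687% of all genes were), Pdgfra (-0.45), Dcn (-0.25) and Col3a1 (-0.18). On leaving out 1 array, Pdgfra was always called (adjusted p up to 0.0227), Dcn was called without 100 pM array 3 and lost without any of the other 8 (up to 0.158), and Col3a1 was lost without any of the 9 (up to 0.154). Epithelial sums were 676.4 to 701.7 on vehicle arrays, 662.8 to 691.2 at 10 pM and 745.7 to 777.5 at 100 pM, and 1 of 10 was called, Krt18 between the doses (0.57), which was called without 100 pM array 1 and lost without any of the other 8 (adjusted p up to 0.178). Without Krt18 the epithelial sums were 503.6 to 537.3 on vehicle arrays, 515.8 to 538.8 at 10 pM and 506.7 to 578.4 at 100 pM, and the groups overlapped. Macrophage sums were 689.5 to 764.7 on vehicle arrays, 636.8 to 724.6 at 10 pM and 584.7 to 613.5 at 100 pM. At 100 pM, 11 of 12 macrophage markers had a lower mean than vehicle (median difference -0.13), where 53% of all genes had a higher one. For 5 of the 12 all 3 arrays lay below vehicle, with 5.89% over all genes. Of the 12, C1qb alone was called at 100 pM (-0.51). It was called without vehicle array 1 or 100 pM array 1 and lost without any of the other 7 (adjusted p up to 0.164). Endothelial sums were 647.9 to 677.4 on vehicle arrays, 641.3 to 670.7 at 10 pM and 631.3 to 655.4 at 100 pM, with Kdr (-0.98) lower and Emcn (0.82) higher at 100 pM, both called on leaving out any 1 of the 9 arrays. Every marker call given here was lost with the compared groups alone (limma) and by analysis of variance. Over these settings the adjusted p reached 0.396 for Pdgfra, 0.438 for Kdr and 0.443 for Emcn. No marker was at a signal of 0, since every probeset has a background. The part of these cells in the cell cycle results was not tested.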

How the data were processed

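Affymetrix Mouse Gene 1.0 ST arrays were hybridised with total RNA of 9 samples, 3 per group. The deposited table holds log2 signals per probeset, which the authors obtained through GCOS and Gene Expression Console software (versions and summarisation method not given in the sources used here). That the scale is log2 follows from the range of the values, since no source states it. Medians of single arrays were 6.17 to 6.20. Some probesets had identical values on several arrays, and arrays that tied were counted as overlapping. The origin of these ties was not tested. Precision is limited by the number of arrays. Groups came from the sample titles.

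Of 35556 probesets, 21789 carried 1 gene symbol in the platform annotation, 1621 several and 12146 none, and 21698 were matched to current symbols by Entrez identifier. Probesets with several symbols were not named. The brightest probeset was kept for each of the 999 genes with more than 1, which left 19938 genes and no filter on dim signals.

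The linear model had 1 mean for each group and took in all 9 arrays (limma 3.58.1 under R 4.3.3, functions lmFit and eBayes), with 3 pairwise contrasts and an F test, two-sided, adjusted by Benjamini-Hochberg over all genes. The procedure was tested on simulated data. The 39 genes, the other lists and the motifs were chosen with earlier results of these data known. Values by array are given for genes of the set called in any test, for the 2 of smallest p per role (all in a role of 3 or fewer), and for Mki67, Ccnd1, Cdkn1b and, had it been measured, Cdkn1a. Other lists name up to 3 called genes per direction and comparison, or the 2 of smallest p, and Pgr is always named. Alternatives were median centring, quantile normalization, a filter on the dimmest 30% of genes, all probesets, the mean of probesets, eBayes with trend and robust, the compared groups alone, a one-way analysis of variance, the replicate number as a block, and leaving out each array. For pairwise comparisons the analysis of variance took the compared groups alone, with each gene's own spread, and for the F test all 3 groups. Its p was adjusted over all genes. The study listed genes by an unadjusted analysis of variance and reported that none remained after Benjamini-Hochberg correction. Promoter windows came from RefSeq (GRCm38.p6), and figures were drawn with matplotlib 3.10.9.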

Additional observations from a re-analysis of the deposited data

How the results depend on the processing

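No difference called here changed sign under any of the 18 alternatives, and the median difference of the 37 genes was between 0.05 and 0.07 at 10 pM and between 0.06 and 0.09 at 100 pM when 1 array was left out. The median difference between 100 pM and 10 pM was -0.01, and ran from -0.0437 without 100 pM array 3 to 0.0313 without 100 pM array 2, where 24 of the 37 genes were higher at 100 pM. Counts of genes called depended on the error model. For 100 pM against vehicle, 226 genes were called in the table, 343 without the dimmest 30% of genes, 119 over all probesets, 349 with trend and robust, 10 with the compared groups alone, 0 by analysis of variance and 88 to 259 with 1 array left out. Between the doses the count was 166, and under the same alternatives 291, 30, 284, 1, 0 and 30 to 178. For the F test it was 168, with 310, 65 and 308 under the first 3, 1 by analysis of variance and 85 to 176. Of the cell cycle genes, 2 were called at 100 pM, 1 over all probesets (Ccnd1), 0 with the compared groups alone, 0 by analysis of variance and 1 to 2 with 1 array left out. Between the doses 1 was called, 2 without the dimmest genes or with trend and robust (Ccnd1 and Cdkn1b), 0 over all probesets, with the compared groups alone or by analysis of variance, and 0 to 2 with 1 array left out. By the F test 1 was called, 3 without the dimmest genes or with trend and robust, 0 by analysis of variance and 1 to 1 with 1 array left out. At 100 pM against vehicle Cdkn1b was called without the dimmest genes (adjusted p = 0.0347) and with trend and robust (adjusted p = 0.0321). Deviations of same-numbered arrays correlated with r between -0.112 and 0.2 over genes, and those of differently numbered arrays with r between -0.189 and 0.168. Correlations from so few arrays cannot tell whether the numbers pair the samples. With the replicate number as a block, 1 gene was called at 10 pM and 1 of the cell cycle genes at 100 pM, Plk1 being lost (adjusted p = 0.09). Centring or quantile normalization moved the median of all genes by at most 0.02. With 3 arrays per group the SE of a difference was 0.03 to 0.11 for the 37 cell cycle genes and 0.03 to 0.33 over all genes.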

Other observations

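By the order of the 3 group means, 20 of the 37 cell cycle genes were highest at 10 pM, 12 had means in rising order of dose, 1 in falling order and 4 were lowest at 10 pM, where 32.1%, 21.1%, 17.1% and 29.6% of all genes had these orders. The first count rests on few arrays, since it was 13 without 100 pM array 2 (with 19 in rising order), 15 without 10 pM array 2, 16 with each array centred on its median and 17 to 21 without any other array, settings chosen after the data were seen. The highest mean at 10 pM was that of 7 of 12 replication genes and 6 of 10 mitotic genes, and the rising order was that of 34 of the 57 other mitotic genes. These orders are of means alone and were not tested.

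A few uncalled genes of the lists were chosen after their values were seen. Gas1, a growth arrest gene, measured 10.02, 9.97 and 9.99 on vehicle arrays, 10.06, 10.00 and 10.00 at 10 pM and 9.85, 9.49 and 9.74 at 100 pM, a difference of -0.30 ± 0.08 at 100 pM (adjusted p = 0.161). In the same list of 10 inhibitors Cdkn2b, Btg1 and Btg2 had all 3 arrays at 100 pM above vehicle, with differences of 0.06, 0.07 and 0.10 (adjusted p = 0.633, 0.577 and 0.499). Over all genes 6.61% lay wholly above vehicle at 100 pM and 5.89% wholly below. In the list of inhibitors 2 lay wholly below, Gas1 and Cdkn1c. Among the p53 targets, Mdm2, which restrains p53, differed by 0.28 (adjusted p = 0.0965) and Sesn1, a stress response gene, by -0.30 (adjusted p = 0.108) at 100 pM. Cks2, which binds the mitotic kinase, differed by 0.25 (adjusted p = 0.0674) on the brightest of its 3 probesets.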
